A study of Mus musculus with 13 samples.

Results

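The enzymes of glycolysis and of the pentose phosphate pathway were examined in Sertoli cells, the somatic cells of the seminiferous epithelium that enclose and nourish developing germ cells. The group was defined by gene symbol and holds 36 of the 27111 features with a gene name in the RNA sequencing table. Of these, 29 belong to glycolysis and its branches and 7 to the pentose phosphate pathway. RNA came from the testes of wild type C57Bl/6J males aged 3 to 5 months, of which 6 were controls and 7 had been exposed to MSUS. MSUS combines separation of a litter from its dam with stress of the dam. On each of postnatal days 1 to 14 the pups spent 3 h away from the dam, starting at a changing hour, while the dam was forced to swim in cold water or was restrained. Control and MSUS males shared strain and cell preparation, while the age range is stated for the adult mice as a whole, not per animal. The preparation took large diploid cells with a high mitochondrial dye signal from digested testis by fluorescence-activated cell sorting. The gate therefore selects on mitochondrial activity in both groups. The labels give no litter, so mice of one litter may be among the samples.

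Glycolysis splits glucose into pyruvate over a chain of enzymes, and the pentose phosphate pathway branches off after the first step to make NADPH and ribose phosphate. Sertoli cells are known for taking up glucose, running it through glycolysis and exporting lactate, which meiotic and postmeiotic germ cells use as fuel. Spermatids and spermatozoa carry their own glycolytic isoforms, several of them encoded by retrogene or duplicate copies such as *Pgk2*.

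The samples had 12701776 to 18649945 estimated counts in total, of which 9776929 to 14383458 were on named genes. Any 2 libraries differed by at least 6.77 times the sampling noise of their counts, so no library had been deposited more than once. Levels are given as log2 CPM, the log2 of the count scaled to the library size after TMM normalization. The 5 Sertoli cell markers averaged 10.05 to 10.32 log2 CPM in controls and 10.03 to 10.29 in MSUS samples. The 4 elongated spermatid markers (*Prm1*, *Prm2*, *Tnp1* and *Tnp2*) averaged 7.50 to 8.15 in controls and 7.26 to 8.55 in MSUS samples, in a gate set on diploid cells. The round spermatid markers averaged 2.87 to 3.37 in controls and 2.78 to 4.20 in MSUS samples, with MSUS 11 highest, and the spermatocyte markers 5.08 to 5.60 and 4.45 to 5.77. Leydig, peritubular myoid and endothelial markers averaged 0.56 to 3.92 over all samples, and spermatogonial, macrophage and lymphoid markers stayed below 0 in each sample. Of the 3 erythroid markers, *Alas2* lay at 7.39 to 8.03. The globin genes *Hbb-bs* and *Hba-a1* were absent or without counts, so they gave no level. No marker gene tested differed between the groups at p under 0.05 in limma. In such bulk samples, fewer cells of a type and less RNA per cell cannot be told apart.

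The bases upstream of the start sites of 2 isoform pairs are shown, because the values of *Pgk1*, *Pgk2*, *Pgam1* and *Pgam2* carry the comparison of somatic with germ-cell isoforms. Phosphoglycerate kinase makes the first ATP of glycolysis, and phosphoglycerate mutase moves the phosphate group in the step after it. *Pgk1* and *Pgam1* are made in most tissues, *Pgk2* is an autosomal retrogene active in meiotic and postmeiotic germ cells, and *Pgam2* is the isoform of muscle and of spermatids. The sequences come from RefSeq on GRCm38.p6 and are written on the strand of the gene, without bases that lie in an annotated exon. They span chrX:106186850-106187099 for *Pgk1* (plus strand), chr17:40208641-40208859 for *Pgk2* (minus strand), chr19:41911621-41911870 for *Pgam1* (plus strand) and chr11:5803797-5804046 for *Pgam2* (minus strand). Capitals mark ACGTG or its reverse complement CACGT, the core of the element that hypoxia-inducible factors bind. A CACGTG E-box, which other factors bind, holds both.

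Pgk1: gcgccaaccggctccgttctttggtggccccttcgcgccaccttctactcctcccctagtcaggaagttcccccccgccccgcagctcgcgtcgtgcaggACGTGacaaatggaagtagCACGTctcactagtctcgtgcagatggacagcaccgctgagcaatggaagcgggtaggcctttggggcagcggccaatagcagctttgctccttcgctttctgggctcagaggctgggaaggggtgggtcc
Pgk2: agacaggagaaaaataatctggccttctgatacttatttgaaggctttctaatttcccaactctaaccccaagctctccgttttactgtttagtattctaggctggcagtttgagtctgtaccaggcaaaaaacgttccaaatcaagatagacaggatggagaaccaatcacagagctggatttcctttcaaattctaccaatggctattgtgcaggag
Pgam1: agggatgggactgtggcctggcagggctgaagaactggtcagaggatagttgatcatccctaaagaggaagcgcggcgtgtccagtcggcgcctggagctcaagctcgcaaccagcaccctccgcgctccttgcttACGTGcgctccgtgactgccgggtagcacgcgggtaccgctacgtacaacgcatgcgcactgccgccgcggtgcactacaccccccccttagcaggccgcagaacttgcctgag
Pgam2: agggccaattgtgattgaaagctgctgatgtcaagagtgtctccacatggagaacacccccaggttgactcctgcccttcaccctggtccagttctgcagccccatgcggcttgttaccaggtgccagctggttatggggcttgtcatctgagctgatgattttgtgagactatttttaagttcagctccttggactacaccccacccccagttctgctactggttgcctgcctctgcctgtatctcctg

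The shown part of *Pgk1* held 2 matches and 17 CpG dinucleotides, and that of *Pgam1* held 1 match and 22 CpG. *Pgk2* and *Pgam2* held no match, with 2 CpG and 1 CpG. Over all windows of 300 bases that RefSeq gives for the 36 enzymes (250 upstream and 50 downstream of a start site), 20 of 53 held the motif (37.7%), against 6447 of 32851 windows of all genes (19.6%). The windows of one gene overlap in places, and a match in these letters is not a bound site. The motif holds a CpG, and the windows of all genes were not matched for CpG content. Of other pairs, the windows of *Pfkfb3* held 2 and 1 matches and that of *Pfkfb4* held 0. The window of *Gapdh* held 1, those of *Gapdhs* 0 and 2, and each of *Eno1* 0. The 2 matches in the *Pfkfb3* window lie in 1 CACGTG E-box, counted as ACGTG and as CACGT.

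In control Sertoli cells the pathway was measured at every step. Of the 33 enzymes that passed the filter on low counts, 26 were above the median of all genes tested (4.31 log2 CPM). *Hk3*, the hexokinase of blood cells, and *Aldoc* and *Eno2*, the brain isoforms of aldolase and enolase, did not pass it, with 0 to 5, 1 to 9 and 0 to 4 counts in a control sample. The plot of levels by mouse places the enzymes between these and *Pkm*, the pyruvate kinase that catalyses the last step, at 9.58 to 9.84 log2 CPM.

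**Figure D1:**
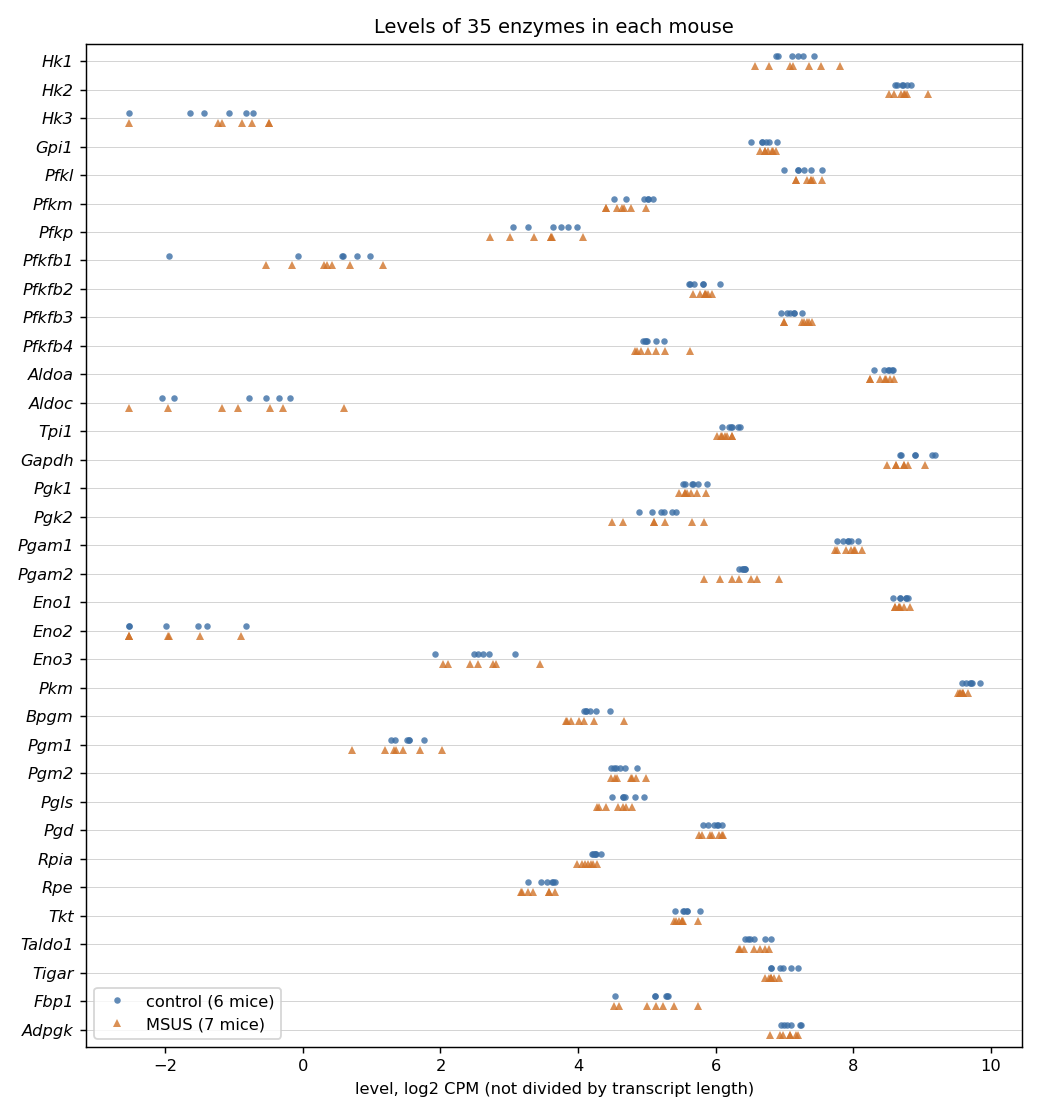
Level of each of 35 enzymes in log2 CPM on the horizontal axis, not divided by transcript length, with 1 circle for each of the 6 control mice and 1 triangle for each of the 7 MSUS mice. *Pkm* is highest at 9.52 to 9.84 log2 CPM over all mice, and *Hk3*, *Aldoc* and *Eno2* lie at or below 0.60.

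Levels of different genes were compared per kilobase of transcript, taking the median length of a gene's protein-coding transcripts. On this scale *Pkm* had 10.16 ± 0.09 log2 CPM per kb (SD, n = 6 controls), *Eno1* 9.08 ± 0.09, *Gapdh* 8.81 ± 0.22 and *Aldoa* 8.74 ± 0.10. These enzymes of the pay-off phase and of aldol cleavage held the first 4 places also with the longest transcript or with the transcripts of the basic annotation set, while their order among themselves changed. *Gapdh* and *Aldoa* differed by less than the spread between mice. The annotation names 2 neighbouring genes *Aldoa*, and the length is that of the gene with more coding transcripts (chr7:126795234-126800751). Of *Pkm*, *Gapdh*, *Gpi1*, *Pgd* and *Rpia*, 0 of the 13 estimates were whole numbers within 0.01, so part of their reads was shared with other features.

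Without length scaling, *Aldoa*, which cleaves fructose bisphosphate, had 8.30 to 8.58 log2 CPM in controls and *Eno1*, the ubiquitous enolase, 8.57 to 8.79. *Gpi1*, the isomerase after hexokinase, had 6.51 to 6.89, *Tpi1*, which interconverts the triose phosphates, 6.09 to 6.36, and *Pgam1* 7.76 to 8.07.

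At the entry of glucose into the pathway, RNA of both *Hk1* and *Hk2* was measured. *Hk2*, the insulin-responsive hexokinase of muscle and fat (chr6:82725025-82774454), had 8.61 log2 CPM in the lowest control, 8.72 at the median and 8.84 in the highest. *Hk1*, the hexokinase of most tissues (chr10:62268855-62379908), had 6.87, 7.15 and 7.43. *Hk1* was the lower of the pair in every control by log2 CPM, but which of them led per kilobase depended on the length taken for it. *Hk1* made up 61.4% ± 3.31 of the hexokinases with the median transcript of 581 bases, 27.0% with the basic annotation set and 30.0% with the longest transcript of 4278 bases. An antisense gene, *Hk1os*, overlaps *Hk1*, and the strand setting of the counting was not given in the sources used here.

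At the committed step, *Pfkl*, the liver-type phosphofructokinase, led with 79.7% ± 2.40 of the family per kilobase, followed by the muscle isoform *Pfkm* with 11.8% ± 1.33 and the platelet isoform *Pfkp* with 8.43% ± 2.20. Among the bifunctional enzymes that make and remove the activator fructose 2,6-bisphosphate, *Pfkfb3*, the isoform with the strongest kinase, held 63.8% ± 3.44, *Pfkfb2*, the heart isoform, 25.8% ± 3.46, *Pfkfb4*, the testis isoform, 9.65% ± 0.569 and *Pfkfb1*, the liver isoform, 0.75% ± 0.358. *Aldoa* held 99.9% of the aldolases and *Eno1* 98.3% ± 0.391 of the enolases. *Eno3*, the muscle enolase, held 1.64% ± 0.396. *Pgm2* held 93.7% ± 0.615 of the phosphoglucomutases, which link glycolysis to glycogen, but the symbols *Pgm1* and *Pgm2* have been exchanged between annotation releases, and which gene each name stands for in this table cannot be told apart.

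In log2 CPM, the controls ranged from 7.0 to 7.55 for *Pfkl* and from 3.06 to 3.98 for *Pfkp*. Among the bifunctional enzymes *Pfkfb2* had 5.61 to 6.06, *Pfkfb4* 4.94 to 5.25 and *Pfkfb1* -1.94 to 0.97. *Eno3* had 1.92 to 3.09, *Pgm1* 1.28 to 1.76 and *Pgm2* 4.48 to 4.85. The minor isoforms *Pfkp*, *Pfkfb1* and *Eno3* thus spread more widely over the control mice than the leading isoforms of their families. They also had few counts, at 84 to 228, 1 to 26 and 37 to 96 in a control, and the part of counting error in their spread was not tested. The control SD was closer for *Pfkm* (0.22) and *Pfkl* (0.19), and for *Pfkfb4* (0.12) and *Pfkfb3* (0.10).

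Of the side branches, *Tigar*, a bisphosphatase that lowers fructose 2,6-bisphosphate, had 5.10 ± 0.15 log2 CPM per kb, *Fbp1*, the gluconeogenic bisphosphatase, 5.04 ± 0.29, and *Adpgk*, an ADP-dependent glucokinase, 5.78 ± 0.12. *Tigar* and *Fbp1* differed by less than the spread between mice. By log2 CPM, *Fbp1* had 4.53 to 5.30 in controls, *Adpgk* 6.95 to 7.24 and *Bpgm*, which makes 2,3-bisphosphoglycerate, 4.08 to 4.46. In the pentose phosphate pathway, *Taldo1* (transaldolase) had 6.21 ± 0.15 log2 CPM per kb and was the highest of the 7. *Pgls* (lactonase) had 4.88 ± 0.16 and *Pgd* (6-phosphogluconate dehydrogenase) 4.82 ± 0.10. *Tkt* (transketolase) had 4.29 ± 0.12, *Rpia* (ribose-5-phosphate isomerase) 3.38 ± 0.05 and *Rpe* (the epimerase) 2.10 ± 0.15. *Pgls* and *Pgd* differed by less than the spread between mice. By log2 CPM, the controls had 5.81 to 6.09 for *Pgd*, 5.41 to 5.77 for *Tkt*, 6.42 to 6.81 for *Taldo1* and 3.27 to 3.67 for *Rpe*.

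Somatic and germ-cell isoforms were then compared within each control mouse, per kilobase, over 8 pairs. The exact two-sided sign-flip test over 6 mice reaches its smallest p when all 6 have one sign, and that p, adjusted over the 8 pairs, was 0.0357. *Pgk1* (chrX:106187100-106203699) had 5.53 log2 CPM in the lowest control, 5.66 at the median and 5.87 in the highest. *Pgk2* (chr17:40207015-40208640) had 4.89, 5.22 and 5.42. The germ-cell kinase was thus nearly as abundant as the somatic one, and per kilobase *Pgk1* exceeded *Pgk2* by 0.31 ± 0.21 on the log2 scale (SD, n = 6), in 5 of 6 mice (exact adjusted p = 0.0625). With all 13 mice the difference was 0.30 and passed the test. Estimates of both were whole numbers in 13 of 13 samples, so the pair was not split from shared reads.

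*Pgam1* exceeded *Pgam2* by 0.45 ± 0.12 in 6 of 6 mice (exact adjusted p = 0.0357), a ratio of 1.36. *Pgam2* had 6.34 log2 CPM in the lowest control, 6.40 at the median and 6.42 in the highest. The distance between isoforms was larger for the other pairs. *Pfkfb3* exceeded *Pfkfb4* by 2.73 ± 0.10, and *Gapdh* exceeded *Gapdhs*, the GAPDH of the sperm tail, by 2.96 ± 0.28. *Aldoa* exceeded the sperm aldolase *Aldoart1* by 7.13 ± 0.25 and *Eno1* exceeded the sperm enolase *Eno4* by 7.62 ± 0.30. Each of these differences had the same sign in 6 of 6 mice (exact adjusted p = 0.0357). Lactate dehydrogenase went the other way: *Ldha* was 0.52 ± 0.19 below the germ-cell isoform *Ldhc* in 6 of 6 mice (exact adjusted p = 0.0357). Among the 7 pairs shown, and with the median transcript length, the somatic gene thus led on average by 6.61-fold or more for PFKFB, GAPDH, aldolase and enolase. The mean ratio of the isoforms was then within 1.43-fold for PGK, PGAM and LDH. Both bounds depend on the length taken. With the longest transcript, *Pfkfb3* had 4.84 log2 CPM per kb and *Pfkfb4* 3.25. For *Ldha* the length was 798.5 bases by the median and 1588 in the basic annotation set, against 872 and 1071 for *Ldhc*. The distances of *Eno1* and *Aldoa* shrink with the basic set. There *Eno1* had 7.74 log2 CPM per kb, against 9.08 by the median, and *Aldoa* 7.89 against 8.74. The length of *Eno4* was 2567 and 2567.5 bases and that of *Aldoart1* 2051 by both. Which of these 2 pairs lies farther apart thus depends on the length.

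**Figure D2:**
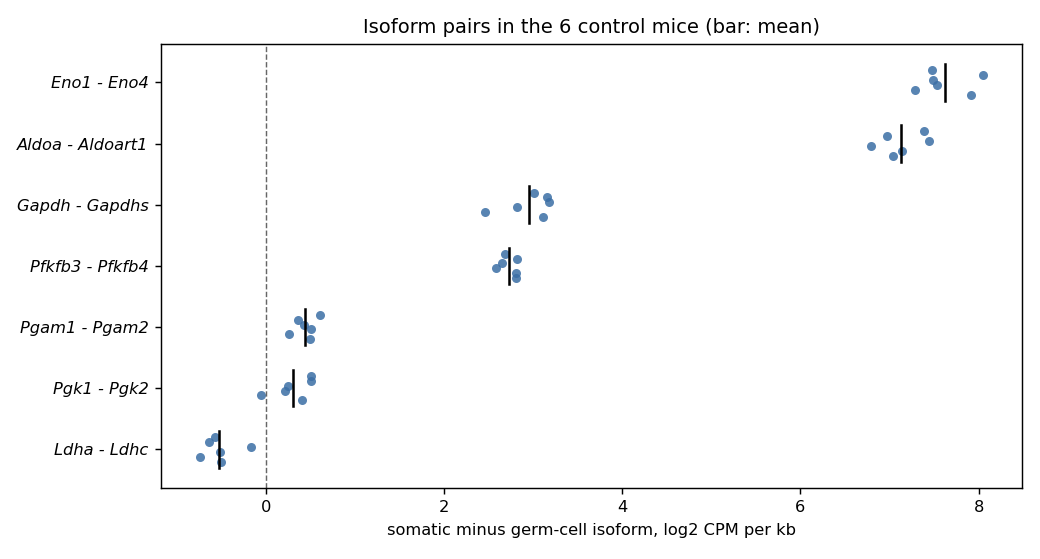
Difference between the somatic and the germ-cell isoform in log2 CPM per kb on the horizontal axis for 7 pairs, with 1 point for each of the 6 control mice and a bar at the mean. *Ldha* minus *Ldhc* lies below 0 in all 6 mice at a mean of -0.52, and *Pgk1* minus *Pgk2* lies at a mean of 0.31 with 1 mouse at -0.05. With the median transcript length plotted, *Eno1* minus *Eno4* is largest at 7.62, a place that depends on the length taken.

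Within families, some isoforms moved from mouse to mouse with the spermatid markers while their somatic partners did not pass the same test. In a limma fit of all genes with group and the elongated spermatid marker level as terms, an analysis chosen after the values were seen, 2 of 33 enzymes rose with the markers at an adjusted p under 0.05 (6.06%), against 0.895% of all 14421 genes tested. They were *Pgk2*, with a slope of 0.95 log2 units per log2 unit of the markers (SE 0.14, adjusted p = 0.00231), and *Hk1*, with a slope of 0.77 (SE 0.14, adjusted p = 0.01). *Gapdhs*, which is not one of the 36, had a slope of 1.08 (SE 0.16, adjusted p = 0.00236). All 3 passed in edgeR and in each of the 13 fits that left out 1 mouse. Among the other 31 enzymes the slopes ran from -0.24 to 0.51 and did not pass. *Hk2* had a slope of -0.20 (SE 0.10, adjusted p = 0.423), *Pgk1* of 0.02 (SE 0.11, adjusted p = 0.971) and *Gapdh* of 0.23 (SE 0.13, adjusted p = 0.518). *Hk1* is the hexokinase for which testis-specific transcripts of postmeiotic cells are known, and the gene-level counts do not separate them.

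The same relation was planned as a correlation for 3 germ-cell isoforms over the 13 mice. For *Pgk2*, Pearson's r was 0.88 and Spearman's rho 0.90 (permutation p = 0.00016 and 0.0001, adjusted over the 3 relations 0.000405 and 0.0003). Without MSUS 11 and MSUS 26, the mice farthest from the median marker level, r was 0.74 (permutation p = 0.0084). Within the 6 controls r was 0.99 (exact permutation p = 0.00139) and within the 7 MSUS mice 0.91 (exact permutation p = 0.000992). For *Gapdhs*, r was 0.85 and rho 0.88 (permutation p = 0.00027 and 0.0002, adjusted 0.000405 and 0.0003), and r was 0.76 without those mice, 0.92 within controls and 0.87 within MSUS mice. For *Ldhc*, r was 0.22 and rho 0.14 (permutation p = 0.477 and 0.655), and r was -0.29 without those mice, -0.40 within controls and 0.44 within MSUS mice. The 3 isoforms share libraries and depth with the markers. These correlations cover the elongated spermatid markers only, and none was taken with the round spermatid markers. MSUS 11 had the highest level of the round markers and of *Ldhc* (4.20 and 8.18), and MSUS 1 the lowest of both (2.78 and 6.99). Control 10 was low in the round markers (2.87) with *Ldhc* at 7.73.

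**Figure D3:**
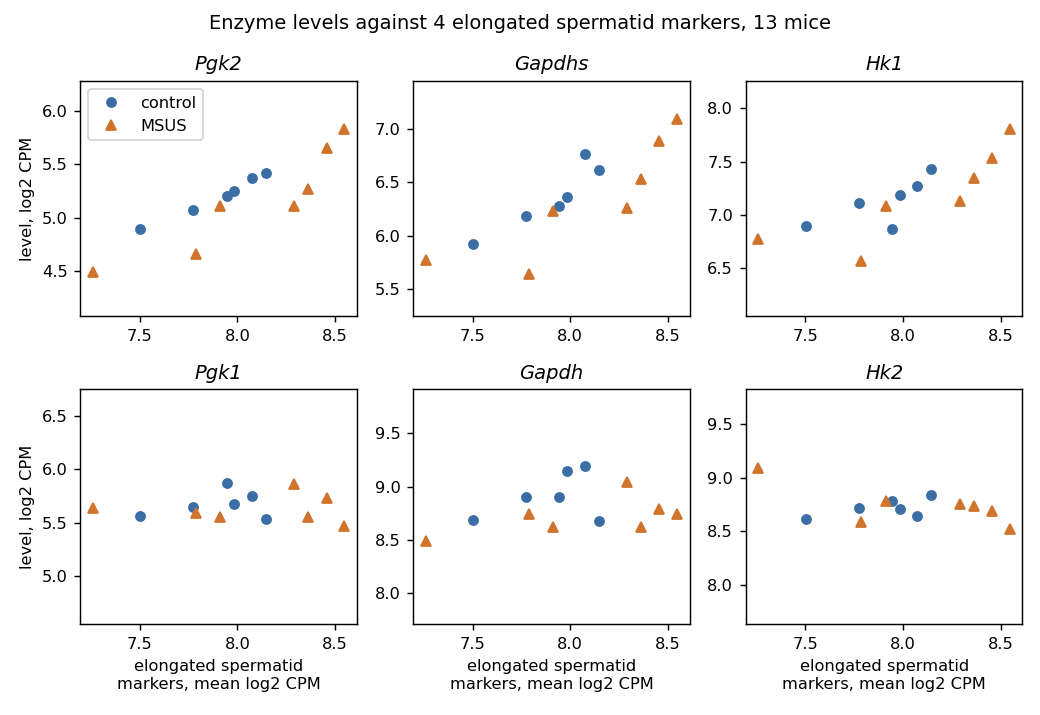
Level in log2 CPM of *Pgk2*, *Gapdhs* and *Hk1* (top) and of *Pgk1*, *Gapdh* and *Hk2* (bottom) against the mean log2 CPM of 4 elongated spermatid markers, with circles for 6 control and triangles for 7 MSUS mice and a vertical span of equal size in each panel. The upper 3 rise with slopes of 0.95, 1.08 and 0.77, and the lower 3 have slopes of 0.02, 0.23 and -0.20 that did not pass the test.

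Against the round spermatid markers, 3 of 33 enzymes rose at an adjusted p under 0.05 (9.09%, against 4.38% of all genes tested). *Pgam2* had a slope of 0.59 (SE 0.11, adjusted p = 0.00583), *Fbp1* of 0.74 (SE 0.16, adjusted p = 0.0117) and *Bpgm* of 0.51 (SE 0.14, adjusted p = 0.0446). MSUS 11 had the highest round spermatid marker level. Without it the slopes of *Pgam2* and *Fbp1* were 0.62 and 0.90 and that of *Bpgm* was 0.20, and 0 enzymes and 0 genes in all passed the adjusted threshold. Without control 10, *Pgk2* and *Hk1* passed as well, for 5 in all, while 876 of the 14552 genes tested rose in that fit. *Bpgm* passed in 5 of the 13 fits that left out 1 mouse and missed the threshold in edgeR (adjusted p = 0.0537), while *Pgam2* and *Fbp1* passed in 12 of 13 and in edgeR.

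MSUS was then compared with control to ask whether early stress left a mark on these enzymes in the adult cells. The values of the groups overlapped for each enzyme tested, and differences were small. In limma, 3 of 33 enzymes had p under 0.05 (9.09%), against 5.42% of all genes tested. All 3 were lower in MSUS, a direction taken by 2.40% of all genes, while 3.02% were higher. No enzyme passed after Benjamini-Hochberg adjustment over all genes (adjusted p from 0.878 to 0.996), nor did any other gene (0.00%). The same held in edgeR and DESeq2. These gave p under 0.05 for 2 and 3 of the enzymes, against 793 and 835 of the 14421 genes tested. The median log2 fold change of the 33 was -0.03, against -0.0018 over all genes, and 22 of 33 were below 0 (66.7%, against 50.5% of all genes).

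*Pkm* (chr9:59656368-59679375) had 9.58 log2 CPM in the lowest control, 9.70 at the median and 9.84 in the highest, and 9.52, 9.58 and 9.66 in MSUS. Each of the 7 MSUS mice was below the control mean and 3 were below every control. The log2 fold change was -0.11 (SE 0.05, limma adjusted p = 0.878), a ratio of 0.924. *Tigar* had 6.81, 6.95 and 7.19 in controls and 6.71, 6.81 and 6.92 in MSUS, with 7 of 7 MSUS mice below the control mean. Its log2 fold change was -0.14 (SE 0.07, limma adjusted p = 0.878). *Pfkm* had 4.52, 4.99 and 5.09 in controls and 4.40, 4.64 and 4.98 in MSUS. Of the MSUS mice 6 were below the control mean and 2 below every control. Its log2 fold change was -0.24 (SE 0.11, limma adjusted p = 0.878).

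With 1 mouse left out, the log2 fold changes kept their sign, at -0.138 to -0.088 for *Pkm*, -0.177 to -0.103 for *Tigar* and -0.325 to -0.199 for *Pfkm*, while the side of the threshold changed. *Pkm* kept p under 0.05 in 9 of these 13 fits and lost it without MSUS 6, MSUS 11, control 14 or control 24. *Tigar* kept it in 4 fits (without control 10, control 12, control 22 or MSUS 26) and *Pfkm* in 4 (without control 12, control 22, MSUS 13 or MSUS 23). Without MSUS 6, control 14 or control 24, 0 of 33 enzymes had p under 0.05, against 670 of 14294, 683 of 14568 and 643 of 14603 genes tested. *Malat1*, a nuclear RNA, was higher in MSUS by 0.70 on the log2 scale at p under 0.05 (SE 0.22, limma adjusted p = 0.878), with 9.16 to 10.70 log2 CPM in controls and 10.16 to 11.27 in MSUS. With its level as a covariate, 0 of 33 enzymes had p under 0.05, against 2.74% of all genes, and *Pkm* differed by -0.051. With the elongated spermatid marker level as a covariate, 5 of 33 did, against 8.13% of all genes: *Pkm*, *Pfkm*, *Gapdh* and *Pgk2* lower and *Pfkfb3* higher.

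**Figure D4:**
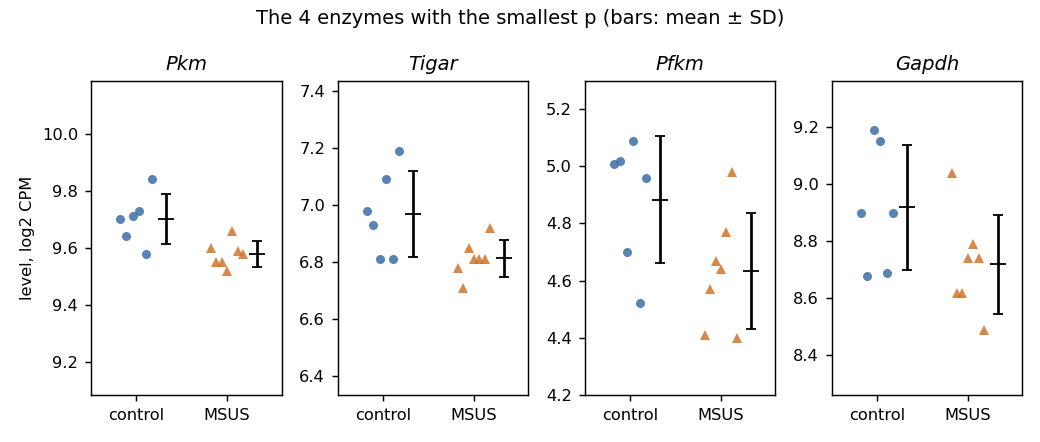
Level in log2 CPM of the 4 enzymes with the smallest p in each of 6 control (circles) and 7 MSUS mice (triangles), with the mean and SD as bars and a vertical span of equal size in each panel. The medians of the MSUS mice lie lower, at 9.58 against 9.70 for *Pkm*, and the groups overlap for each enzyme.

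The next smallest p-values belonged to *Gapdh*, *Pfkfb3* and *Pgls*. *Gapdh* had 8.68, 8.90 and 9.19 log2 CPM at the lowest, median and highest control and 8.49, 8.74 and 9.04 in MSUS, with 3 of 7 MSUS mice below every control (log2 fold change -0.19, SE 0.09, limma adjusted p = 0.878). *Pfkfb3* had 6.95, 7.11 and 7.26 in controls and 7.0, 7.28 and 7.40 in MSUS, with 4 of 7 above every control (log2 fold change 0.13, SE 0.07, limma adjusted p = 0.878). The somatic and germ-cell kinases lay close to 0. *Pgk1* had a log2 fold change of -0.03 (95% confidence interval -0.19 to 0.13) and *Pgk2* of -0.03 (-0.40 to 0.33). The hexokinases were at 0.05 for *Hk1* (-0.28 to 0.38) and 0.03 for *Hk2* (-0.13 to 0.18). *Pfkp* was at -0.19 (-0.61 to 0.22). The remaining enzymes outside the pentose phosphate pathway ran from -0.12 for *Bpgm* to 0.24 for *Pfkfb1*, whose interval spanned -0.86 to 1.35.

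**Figure D5:**
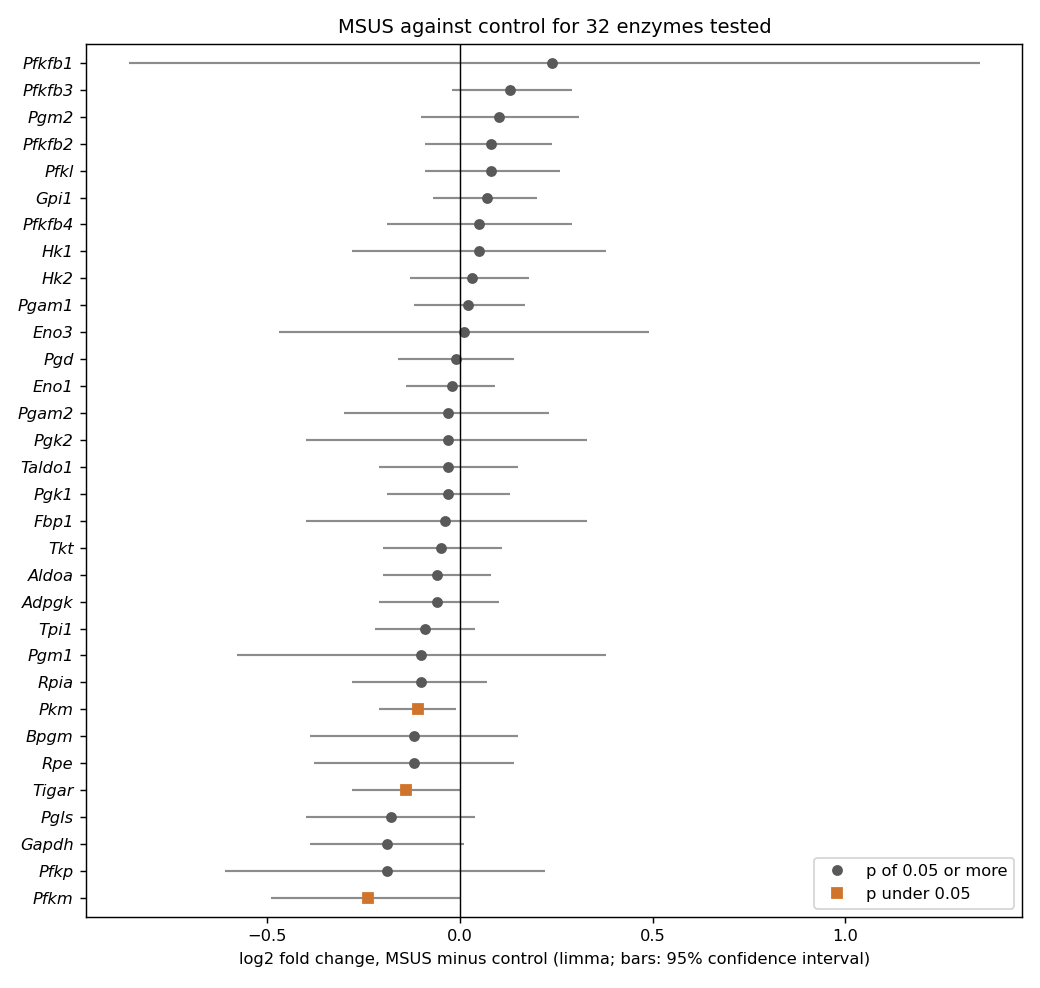
Log2 fold change of MSUS against control from limma for 32 of the enzymes tested, with the 95% confidence interval as a bar and squares for p under 0.05. *Pfkm*, *Tigar* and *Pkm* are marked at -0.24, -0.14 and -0.11, and 21 of the 32 points lie below 0.

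All 7 pentose phosphate enzymes had a log2 fold change below 0, from -0.18 to -0.01, with a median of -0.07, and 0 of 7 had p under 0.05. Of all genes tested, 50.5% were below 0 and 5.42% had p under 0.05. *Pgls* had 4.50, 4.67 and 4.96 log2 CPM in controls and 4.27, 4.58 and 4.79 in MSUS (log2 fold change -0.18, SE 0.11, limma adjusted p = 0.878). *Rpia* had 4.20, 4.24 and 4.33 in controls and 3.98, 4.15 and 4.28 in MSUS, with 5 of 7 MSUS mice below every control. *Tkt* was at -0.05 (-0.20 to 0.11) and *Taldo1* at -0.03 (-0.21 to 0.15). With *Malat1* as a covariate *Taldo1* turned to 0.063.

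The SD was larger in MSUS than in control mice for 22 of the 33 enzymes (66.7%), near the share of all genes tested (64.4%), and for 5 of the 7 germ-cell isoforms. The enzymes named here were chosen after their values were seen. *Pgam2* lay within 6.34 to 6.42 log2 CPM in the 6 controls (SD 0.03) and between 5.83 and 6.92 in the 7 MSUS mice (SD 0.36), with 3 of these below and 3 above every control. *Pgk2* had an SD of 0.20 in controls and 0.48 in MSUS, and *Hk1* of 0.22 and 0.43. *Hk2* had 0.09 and 0.18, and the germ-cell isoform *Aldoart1* 0.26 and 0.25. The elongated spermatid markers had an SD of 0.23 and 0.46 and the round spermatid markers of 0.19 and 0.49. The difference in spread was not tested.

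The share of the leading isoform within a family was compared between the groups for 8 families, by an exact permutation test over all 1716 splits. *Pfkl* made up 79.7% of the phosphofructokinases in controls and 82.7% in MSUS, a difference of 2.94 percentage points (exact permutation p = 0.0997, adjusted over the 8 families 0.798). The difference was 3.74 points without MSUS 11 and 3.86 without control 24, each with an unadjusted p under 0.05. For the other 7 families the unadjusted p ran from 0.438 to 0.969. *Pgk1* held 55.3% of the phosphoglycerate kinases in controls and 55.1% in MSUS.

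Genes around the pathway were taken from lists of related function. Counts of genes with p under 0.05 in these short lists stand beside the 5.42% of all genes tested. Of the 21 neighbouring enzymes tested, 2 had p under 0.05 (9.52%) and both were lower in MSUS, as were 2.40% of all genes: *Mpi*, the mannose phosphate isomerase, with a log2 fold change of -0.15 (SE 0.06, limma adjusted p = 0.878), with 6 of 7 MSUS mice below every control, and *G6pc3*, the ubiquitous glucose-6-phosphatase, with -0.19 (SE 0.09, limma adjusted p = 0.878). Of 19 genes of lactate, pyruvate and glucose handling tested, *Ldhb*, which interconverts lactate and pyruvate, had a log2 fold change of -0.14 (SE 0.06, limma adjusted p = 0.878), and the glucose transporter *Slc2a1* of 0.15 (SE 0.07, limma adjusted p = 0.878), with p under 0.05 for both (10.5% of the list). *Slc2a1* was above every control in 5 of 7 MSUS mice. The lactate transporters did not pass, with *Slc16a1* at -0.09 and *Slc16a3* at 0.27. Of the 7 germ-cell isoforms, 0 had p under 0.05, with log2 fold changes from -0.16 to 0.27, *Gapdhs* at 0.00, *Ldhc* at -0.06, *Aldoart1* at 0.27, *Aldoart2* at 0.06, *Eno4* at 0.03 and *Pdha2* at -0.16. Of 13 regulators tested, *Mlxipl*, the carbohydrate response factor ChREBP, alone had p under 0.05 (7.69%), with a log2 fold change of 0.43 (SE 0.14, limma adjusted p = 0.878), with 6.03, 6.33 and 6.60 log2 CPM in controls and 6.24, 6.84 and 7.20 in MSUS. *Hif1a* was at -0.06.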

How the data were processed

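RNA of sorted Sertoli cells from 6 control and 7 MSUS males was sequenced with a stranded total RNA kit. The authors trimmed the reads (Trim Galore 0.6.5), assigned them to GENCODE transcripts with Salmon 1.1.0 and deposited estimated counts per gene (expected counts), not normalized. Values were rounded before testing. The 27170 of 54281 features with no gene name held 20.7% to 26.7% of a sample's counts and were left out. Genes were tested with limma 3.58.1 voom after TMM normalization (edgeR 4.0.16, R 4.3.3), which the study's methods name. Leaving out unnamed features and the filterByExpr filter were choices made here. DESeq2 1.42.0 and the quasi-likelihood test of edgeR served as alternatives. A prior count of 2 was added for log2 CPM. Unless stated, p-values were adjusted by Benjamini-Hochberg across the 14421 genes tested. Counts of 14264 genes were simulated with the same dispersion (0.05) for every gene. In them, changes of 0.5 and 1.0 on the log2 scale had an adjusted p under 0.05 for 19.4% and 91.5% of changed genes, so small changes could be missed. The spread of the enzymes differed from gene to gene (SE 0.05 for *Pkm*, 0.52 for *Pfkfb1*), so these shares do not give the sensitivity for a single enzyme. Counting error limits the enzymes with few counts (*Pfkfb1*, *Pgm1*). The p-values of the group comparison set a difference against the spread between these samples. Transcript lengths and coordinates come from GENCODE vM21 on GRCm38, an earlier release than the authors' vM23. Members, gene lists and tests were chosen with earlier results of these data known. Of the 36 enzymes, 1 enters the counts but is not reported here. The level of each other enzyme is given, and fold changes with errors for those with p under 0.05, the 6 with the smallest p and a set chosen by role.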

Additional observations from a re-analysis of the deposited data

Results flagged for a closer look

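A sample stood apart from the rest of its group in 4 of the 70 groups of 6 or 7 mice searched (35 genes in each group), where chance flags about 1 in 20, or 3.5. *Pfkfb1* was at -1.94 log2 CPM in control 9, against -0.07 to 0.97 in the other controls, at 1 to 26 counts per control. *Tkt* was at 5.75 in MSUS 23, against 5.40 to 5.52. *Fbp1* was at 4.53 in control 14, against 5.12 to 5.30, and *Ldhc* was at 7.19 in the same mouse, against 7.66 to 7.87. The cause was not tested.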

How the results depend on the processing

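No paired analysis was possible because the labels number the animals and no number is shared between the groups. The count of enzymes with p under 0.05 (3, against 781 of all genes) was 1 with RLE size factors (789), 5 with the elongated spermatid markers as covariate (1172), 0 with *Malat1* as covariate (395) and 0 to 4 with 1 mouse left out (534 to 1121). The median fold change stayed below 0 in every fit (-0.079 to -0.001). Over the fold changes of 14 named enzymes under alternatives, 263 kept direction and side of the threshold, 30 lost and 11 gained p under 0.05 and 18 changed sign. The last were *Hk1* at -0.089 (elongated spermatid covariate) and -0.053 and -0.004 (without MSUS 11 or 13, range to 0.147), *Hk2* at -0.059 (*Malat1*) and -0.028 (without MSUS 26, range to 0.062), *Pgk1* at 0.067 (*Malat1*) and 0.005 (without control 24, range from -0.071), *Taldo1* at 0.063 (*Malat1*), 0.004 (without MSUS 13) and 0.011 (without control 24, range from -0.07), and *Pgk2* at 0.024 (edgeR), 0.031 (DESeq2), 0.008 (quality weights), 0.109 (*Malat1*) and 0.002 to 0.092 (without control 10, at 0.016, control 12, MSUS 23, at 0.038, or MSUS 26, range from -0.144). *Pgk1* minus *Pgk2* passed at 0.47 without length scaling and at 0.30 with all 13 mice, a test of more samples. With the longest transcript, the basic annotation set and no length scaling, the share of *Hk1* was 30.0%, 27.0% and 25.0%, that of *Aldoa* 99.9%, 99.9% and 99.8%, and that of *Pgm2* 90.2%, 89.9% and 89.6%. *Pfkl* was at 75.6% with the longest transcript and 74.4% with the basic set, *Pfkfb3* at 55.9% with the longest transcript and *Pgam1* at 74.2% without scaling. The group difference in share, in percentage points with 1 mouse left out, ran from -1.99 to 2.25 for *Hk1*, with -0.349, -0.923, -0.192 and -0.894 also below 0, from 2.20 to 3.86 for *Pfkl* (3.74 without MSUS 11), from -0.115 to 1.63 for *Pfkfb3*, from -0.0183 to 0.00555 for *Aldoa*, from -2.06 to 2.15 for *Pgk1*, with 0.325, 0.195, 0.908, 0.469 and 0.49 also above 0, from -0.668 to 2.84 for *Pgam1* (-0.629 without MSUS 26) and from -0.226 to 0.123 for *Eno1* (0.0071 without control 24). *Ldhc* against the markers turned to r = -0.29 without the 2 farthest mice. The count of enzymes rising with the round spermatid markers was 0 without MSUS 11 (0 of all genes) and 5 without control 10 (876). With the elongated markers the count was 2 to 3 (45 to 183). The causes were not tested. The basic annotation set, the round spermatid covariate and the slopes were added after the data were seen. Depth limits *Pfkfb1* and *Pgm1*, and *Hk3*, *Aldoc* and *Eno2* could not be tested.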
